A study of Mus musculus with 36 samples.

Results

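The genes of the non-fibrillar basement membrane proteins were examined in mouse liver, namely 5 chains of collagen IV (Col4a1, Col4a2, Col4a3, Col4a4 and Col4a5), collagens XV and XVIII (Col15a1 and Col18a1), both nidogens (Nid1 and Nid2) and perlecan (Hspg2). They were picked by their symbols, and all 10 were found among the 24421 genes of the deposited count tables. Each of the 10 passed the filter on low counts in every comparison.

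A basement membrane is a thin sheet of matrix under epithelia and around vessels, in which a network of collagen IV and a network of laminin are joined by nidogens and by perlecan, a heparan sulfate proteoglycan. Col4a1 and Col4a2 encode the chains that assemble together in most basement membranes, whereas the chains of Col4a3, Col4a4 and Col4a5 form a separate collagen IV best known from the kidney glomerulus. Collagens XV and XVIII carry glycosaminoglycan chains, and the C-terminal piece of collagen XVIII is endostatin. The healthy liver sinusoid has no continuous basement membrane, and one is laid down along it in hepatic fibrosis.

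RNA-seq had been done on livers of 36 male C57BL/6J mice, 1 library a mouse, all of which had first eaten the CDAHFD, a fat-rich diet without choline that induces steatohepatitis with fibrosis, for 12 weeks. In one experiment a high-fat diet (HFD) followed for 2 weeks, with a weekly injection of Fc at 4.3 mg/kg in 10 mice and of Fc(mML1)B3 at 5 mg/kg in 10 mice. In the other a standard diet followed for 10 days, with injections on days 1, 4 and 7 of the same dose of Fc in 9 mice and of Fc(mML1)B3 in 7 mice. Fc is the crystallizable fragment of human IgG1 and served as control, and Fc(mML1)B3 is the same protein with a macrocyclic peptide that binds mouse Met grafted into a surface loop, which makes it an agonist of Met, the receptor of hepatocyte growth factor. Diet, duration and injection schedule changed together between the experiments and cannot be told apart.

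Total counts were 14949035 to 28466853 per library. Under the standard diet the Fc(mML1)B3 libraries (24772468 to 28466853) were mostly deeper than the Fc libraries (19085473 to 25477135). Markers of hepatocytes summed to 76434 to 148695 CPM (counts per TMM-scaled library total, brought to a common size) over all groups, as in liver tissue, and none of the markers of endothelium, stellate cells, cholangiocytes or macrophages was without reads in a whole group. Sample numbers in the file names ran in separate series, with all Fc mice of the HFD experiment in one series and Fc(mML1)B3 mice 1 to 4 and 5 to 10 in 2 others. In whole liver, fewer cells of a type and less RNA per cell cannot be told apart.

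The collagen IV chain genes lie in neighbouring pairs in the genome. On mm10, Col4a1 (chromosome 8, 11198423 to 11312826, minus strand) and Col4a2 (chromosome 8, 11312829 to 11449287, plus strand) point away from each other with 2 bases between their annotated ends. Col4a4 (chromosome 1, 82450723 to 82586849, minus strand) and Col4a3 (chromosome 1, 82586921 to 82722059, plus strand) do the same with 71 bases between them. Col4a5 (chromosome X, 141475419 to 141689235, plus strand) lies apart from Col4a3 and Col4a4, with 1342 bases between it and Col4a6. The windows from 250 bases before to 50 bases after the RefSeq start are shown because the text compares how closely each pair moved. Both are from RefSeq on GRCm38.p6, which is mm10, and each reads 5′ to 3′ on the strand of the named gene. In the window of Col4a2 (chr8:11312555-11312854, plus strand) the capitals mark the 78 bases that it shares with the window of Col4a1. In that of Col4a4 (chr1:82586800-82587099, minus strand) they mark the 71 bases between the starts of Col4a4 and Col4a3. The RefSeq start used for the Col4a2 window lies 24 bases upstream of the Col4a2 start in the annotation used for counting, so it falls within the annotated Col4a1, while that of Col4a4 is the same in both.
Col4a2: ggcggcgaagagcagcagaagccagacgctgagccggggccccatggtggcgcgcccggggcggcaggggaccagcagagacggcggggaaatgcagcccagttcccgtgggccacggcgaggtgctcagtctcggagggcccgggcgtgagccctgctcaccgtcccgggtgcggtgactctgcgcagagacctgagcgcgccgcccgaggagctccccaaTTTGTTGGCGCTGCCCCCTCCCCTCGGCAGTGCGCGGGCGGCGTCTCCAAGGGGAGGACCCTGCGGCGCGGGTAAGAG
Col4a4: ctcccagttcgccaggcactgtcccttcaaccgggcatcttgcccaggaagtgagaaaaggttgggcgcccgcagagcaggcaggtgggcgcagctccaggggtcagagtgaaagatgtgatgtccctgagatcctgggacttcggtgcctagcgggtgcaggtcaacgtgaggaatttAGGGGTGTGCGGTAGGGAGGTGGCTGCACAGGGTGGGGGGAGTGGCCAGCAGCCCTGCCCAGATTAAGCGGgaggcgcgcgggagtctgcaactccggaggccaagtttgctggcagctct

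RefSeq windows were matched for 8 of the 10 genes, Col18a1 with 2, and not for Col4a3 and Nid2. GC content was 52.3% to 74.0% over these 9 windows, highest at Col4a1, against a median of 52.7% over all 32851 windows. On either strand, the letters CCAAT were in 5 of the 9 windows (37.4% of all windows), GGGCGG in 6 (35.7% of all) and TATAAA in 0 (13.6% of all). The windows of Col4a1 and Col4a2 overlap, so a match in the shared bases counts in both.

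Col18a1 was by far the most abundant transcript of the group. In CPM per kilobase of exon, a level that allows genes to be compared, Col18a1 stood at 108 ± 19.2 (SD, n = 10) in HFD-fed Fc mice and 113 ± 19.3 (SD, n = 10) in HFD-fed Fc(mML1)B3 mice. On the standard diet it stood at 137.2 ± 17.4 (SD, n = 9) in Fc mice and 121 ± 9.60 (SD, n = 7) in Fc(mML1)B3 mice. Col4a1 came next in every group, at 7.60 to 11.6 CPM per kilobase in the mean, and did not overlap Col18a1 in any of them. This was 11.2% ± 4.31 of the Col18a1 level within a mouse in HFD-fed Fc mice and 6.26% ± 0.477 in Fc(mML1)B3 mice on the standard diet.

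Below Col4a1, Col4a2 and Nid1 lay close together at 5.43 to 7.32 CPM per kilobase in the mean, and their ranges overlapped in all 4 groups. Col15a1 and Hspg2 followed at 2.00 to 3.85, also overlapping each other in every group. Nid2 and Col4a5 stood at 0.745 to 1.70. Col4a3 and Col4a4 were the lowest, at 0.124 to 0.290 CPM per kilobase, and rested on as few as 18 and 6 reads in a library, so counting error adds to their spread. The order of neighbours whose ranges overlap is not firm, and Col4a2 and Nid1, Col15a1 and Hspg2, Nid2 and Col4a5, and Col4a3 and Col4a4 changed places between groups.

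**Figure D1:**
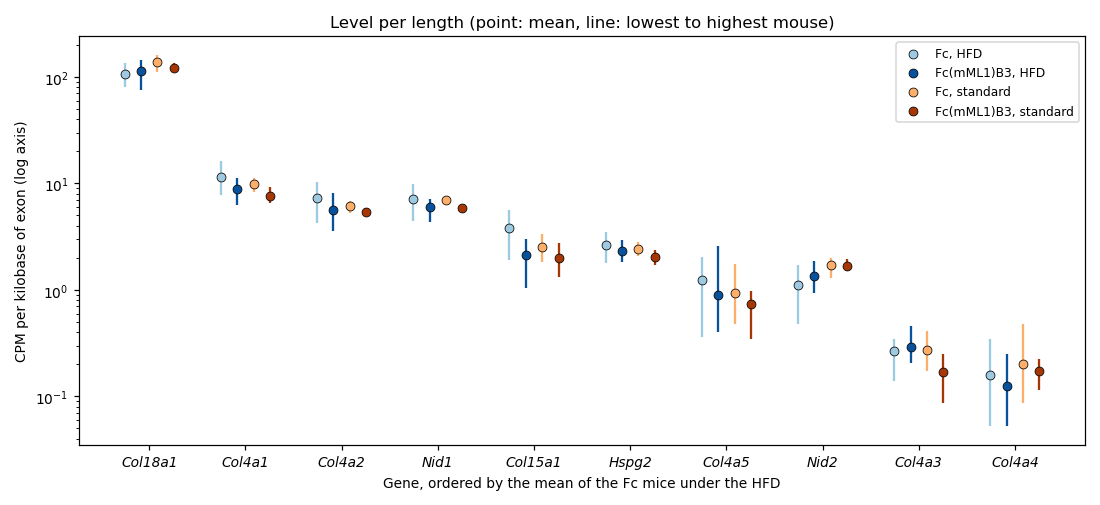
Level per length (CPM per kilobase of exon, log axis) of each gene in the 4 groups, where a point is the group mean and a line runs from the lowest to the highest mouse. Col18a1 sits far above Col4a1, whose level was 6.26% to 11.2% of it in the group means, and Col4a3 and Col4a4 are the lowest.

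Under the HFD, the Fc(mML1)B3 group had less Col15a1 mRNA than the Fc group, and no other of the 10 genes passed the test. Col15a1 was thus 1 of 10 genes called lower, against 6.68% of the 13299 genes tested that were lower at an adjusted p below 0.05, and 0 of 10 were called higher, against 8.14% of all. At the thresholds of the study (adjusted p below 0.1 and more than 2-fold), 0 of 10 were called by edgeR, against 1.34% of all. With DESeq2, the package that the study used, 0 of 10 were called at these thresholds, against 1.66% of the genes DESeq2 tested. Of the 10 log2 fold changes 7 were below 0, with a median of -0.28, beside a median of -0.01 over all genes.

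Col15a1, the gene of a collagen of the zone between basement membrane and stroma, had 10.1 CPM in the lowest, 19.0 in the median and 30.2 in the highest Fc mouse under the HFD. In the Fc(mML1)B3 group the same values were 5.50, 11.3 and 15.8 CPM. All 10 Fc(mML1)B3 mice were below the Fc median and 3 were below the lowest Fc mouse, so the groups overlapped. The log2 fold change was -0.86 (standard error 0.20, edgeR's quasi-likelihood test, adjusted p = 0.0049). It was called with each mouse left out in turn. Against all Fc mice, Fc(mML1)B3 mice 5 to 10 gave -0.82 (edgeR, adjusted p = 0.039) and mice 1 to 4, the other series of sample numbers, gave -0.89 without a call (edgeR, adjusted p = 0.058).

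Of the ubiquitous collagen IV chains, Col4a1 ranged from 51.3 to 107 CPM (median 76.3) in the Fc group under the HFD and from 41.2 to 74.9 CPM (median 58.1) in the Fc(mML1)B3 group. All 10 Fc(mML1)B3 mice were below the Fc median and 3 below the Fc range. The log2 fold change of -0.39 (standard error 0.14) missed the threshold (edgeR, adjusted p = 0.066). It passed with DESeq2 (adjusted p = 0.049), with limma (0.025), with all 36 libraries in 1 edgeR fit (0.015) and without Fc mouse 3 or 5 or Fc(mML1)B3 mouse 2 or 5 (edgeR, adjusted p of 0.035 to 0.044). Col4a2 ranged from 27.2 to 66.4 CPM (median 46.8) with Fc and from 23.2 to 52.1 CPM (median 35.5) with Fc(mML1)B3, a log2 fold change of -0.37 (standard error 0.16, edgeR, adjusted p = 0.12).

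The Fc mice under the HFD differed widely among themselves, and the same animals were high for several genes. Mice 1, 7, 8 and 9 had the highest values of the group for Col4a1 (87.2 to 107 CPM), Col4a2 (55.4 to 66.4 CPM), Col15a1 (26.6 to 30.2 CPM) and Nid1 (45.7 to 59.5 CPM). The coefficient of variation of Col4a1 over mice was 26.6% in this Fc group and 9.61% in the Fc group under the standard diet.

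The linkers and the remaining collagens did not pass the test under the HFD. Nid1, the more abundant nidogen, had a median of 42.0 CPM (27.05 to 59.5) with Fc and 36.7 CPM (26.5 to 43.5) with Fc(mML1)B3, and Hspg2 medians of 36.1 and 32.7 CPM. The log2 fold changes of Nid1 (-0.23, standard error 0.12), Hspg2 (-0.19, standard error 0.12), Col4a5 (-0.46, standard error 0.34) and Col4a4 (-0.33, standard error 0.32) were below 0. Those of Nid2 (0.29, standard error 0.18), Col4a3 (0.11, standard error 0.19) and Col18a1 (0.07, standard error 0.11) were above 0. Their adjusted p in edgeR's test lay between 0.18 and 0.72. The values of the 3 low chains moved with single mice, since with a mouse left out in turn Col4a5 ranged from -0.79 (without Fc(mML1)B3 mouse 5) to -0.35 (without Fc mouse 4), Col4a4 from -0.50 (without Fc(mML1)B3 mouse 5) to -0.13 (without Fc mouse 1) and Col4a3 from 0.02 (without Fc(mML1)B3 mouse 5) to 0.17 (without Fc mouse 3), with none called. Col18a1 likewise ranged from 0.03 (without Fc(mML1)B3 mouse 6) to 0.12 (without Fc(mML1)B3 mouse 5) and was not called.

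**Figure D2:**
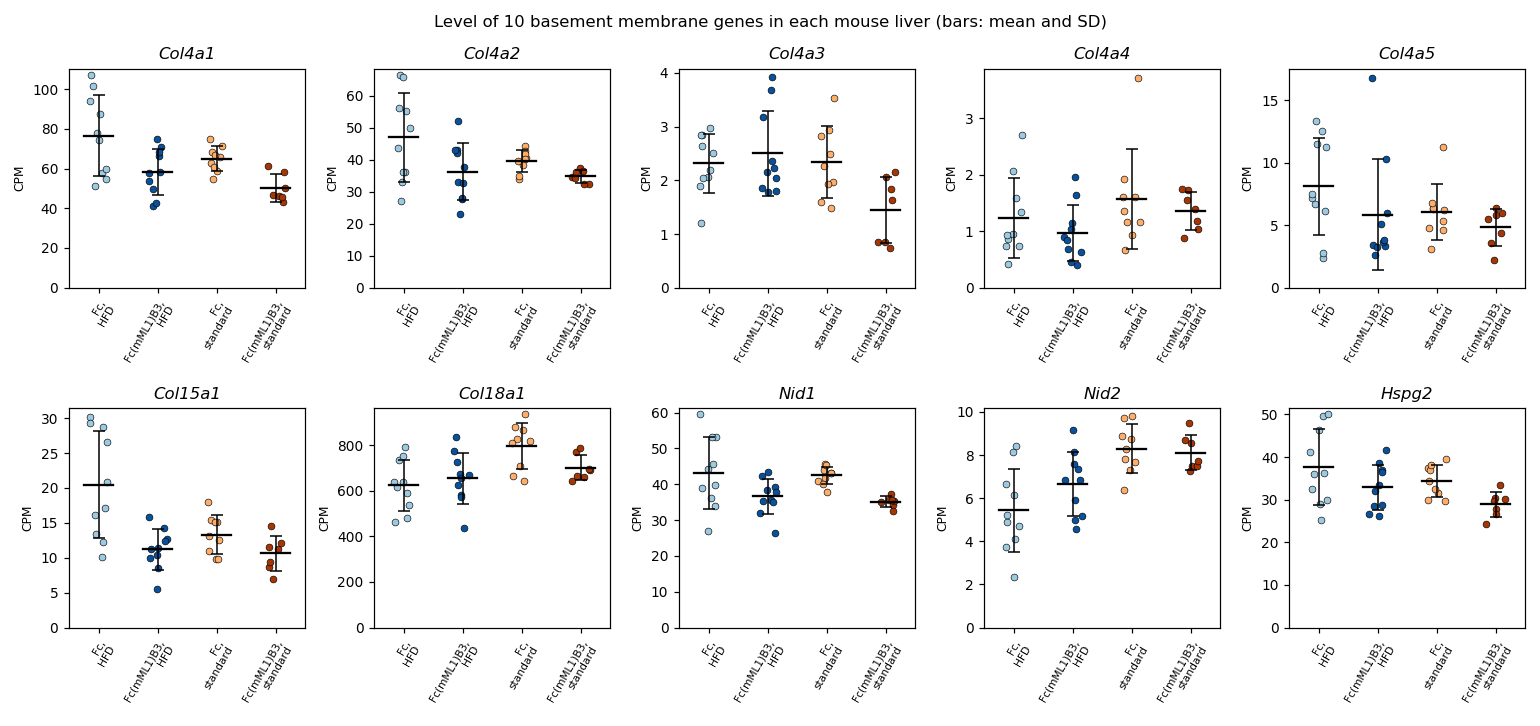
Level (CPM, linear axes from 0) of each of the 10 genes in every mouse of the 4 groups, with the mean as a line and the SD as a bar. Col15a1 in HFD-fed Fc(mML1)B3 mice stays at or below 15.8 CPM while the Fc group reaches 30.2 CPM, and Nid1 under the standard diet has no overlap between the groups.

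Clock genes and markers of cell types were also compared between the treatments under the HFD. The clock genes were far apart, with Arntl, which encodes BMAL1, at 1.19 ± 0.497 CPM (SD, n = 10) with Fc and 18.6 ± 8.09 CPM (SD, n = 10) with Fc(mML1)B3, and Dbp, an output gene of the clock, at 99.8 ± 20.5 and 9.94 ± 8.02 CPM. On the standard diet Arntl was lower with Fc(mML1)B3, by a log2 fold change of -1.05 (standard error 0.27, edgeR, adjusted p = 0.011), and the log2 fold change of Dbp was 0.14 (standard error 0.17). The hour at which livers were taken is not given in the sources used here. Markers of activated stellate cells summed to 341 to 804 CPM (median 620) with Fc and 313 to 1003 CPM (median 436) with Fc(mML1)B3 under the HFD, with 0 of 8 called (edgeR; also 0 at an unadjusted p below 0.05, and 0 with DESeq2 and limma). Vascular endothelial markers summed to 108 to 138 and 106 to 159 CPM, with 0 of 6 called by the same counts. Cholangiocyte markers summed to 169 to 846 CPM (median 567) and 167 to 824 CPM (median 312), macrophage markers to 445 to 1232 CPM (median 653) and 469 to 981 CPM (median 581), and sinusoidal endothelial markers to 278 to 316 CPM (median 291) and 249 to 379 CPM (median 325). None of these was called by edgeR or DESeq2, and limma called 1 cholangiocyte and 1 sinusoidal marker. At an unadjusted p below 0.05, 1 cholangiocyte and 3 macrophage markers were lower and 3 sinusoidal markers were higher. The share of all genes at an unadjusted p below 0.05 is not given here, so nothing is read from these counts. Of the remaining lists, 1 of 6 quiescent stellate markers (Vipr1, chosen after its value was seen) and 1 of 6 hepatocyte markers (Hnf4a, likewise) were called higher. Of all genes edgeR called 6.68% lower and 8.14% higher, so nothing is read about the marker lists from the number called. The part of these measures in the result for Col15a1 was not tested.

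In the standard diet experiment, the Fc(mML1)B3 group had lower mRNA of the ubiquitous collagen IV pair, Col4a1 and Col4a2, and of 2 linkers, Nid1 and Hspg2. These were 4 of 10 genes called lower, against 7.55% of the 13570 genes tested, and 0 of 10 were called higher, against 8.56% of all. None of the 4 was called in the fit of all 36 libraries, whose values are given below. Of 2 pairs of thresholds that the study states for this diet, an adjusted p below 0.05 with more than 1.5-fold was used here, at which edgeR called 0 of 10, against 2.36% of all, and DESeq2 called 1 of 10, Col4a3, against 2.43% of the genes it tested. At the other pair (adjusted p below 0.1 and more than 2-fold) none of the 10 could be called, as no fold change was that large. All 10 log2 fold changes were below 0, from -0.68 to -0.03 with a median of -0.26, beside -0.01 over all genes, of which 52.5% were below 0. The sign of Nid2 turned without Fc mouse 2 or 4, and that of Col4a4 without Fc mouse 6.

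Nid1, which bridges laminin and collagen IV, ranged from 37.9 to 45.6 CPM (median 43.2) in the Fc group and from 32.7 to 37.3 CPM (median 35.4) in the Fc(mML1)B3 group. The groups did not overlap, as in 1.14% of all genes tested, counting those lower with Fc(mML1)B3, and the log2 fold change was -0.27 (standard error 0.05, edgeR, adjusted p = 0.00033). Of the 4 calls it was the only one that remained among the libraries in the series of the highest sample numbers, which hold 4 Fc and all 7 Fc(mML1)B3 mice (log2 fold change -0.24, edgeR, adjusted p = 0.020). This series holds fewer Fc mice, so the loss of the other calls does not show that those differences were gone.

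Col4a1 ranged from 54.9 to 74.7 CPM (median 65.9) with Fc and from 43.0 to 61.2 CPM (median 46.7) with Fc(mML1)B3, and 5 of the 7 Fc(mML1)B3 mice were below the lowest Fc mouse. Mice 1 and 7 were the 2 within the Fc range, at 58.5 and 61.2 CPM. The log2 fold change was -0.37 (standard error 0.08, edgeR, adjusted p = 0.0023). Col4a2 changed less, from 33.9 to 44.3 CPM (median 40.4) with Fc to 32.3 to 37.4 CPM (median 34.6) with Fc(mML1)B3, a log2 fold change of -0.19 (standard error 0.06, edgeR, adjusted p = 0.028). Its call was lost without Fc(mML1)B3 mouse 4 or 6 (edgeR, adjusted p = 0.066 each).

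Hspg2, which encodes perlecan, ranged from 29.6 to 39.6 CPM (median 34.3) with Fc and from 24.2 to 33.4 CPM (median 29.6) with Fc(mML1)B3. All 7 Fc(mML1)B3 mice were below the Fc median and 3 below the Fc range. The log2 fold change was -0.25 (standard error 0.07, edgeR, adjusted p = 0.021), and the call was lost without Fc(mML1)B3 mouse 5 (edgeR, adjusted p = 0.051). When the libraries of both diets shared 1 estimate of the spread, none of the 4 genes was called (edgeR with all 36 libraries, adjusted p of 0.11 for Col4a1, 0.15 for Nid1, 0.25 for Hspg2 and 0.55 for Col4a2), with log2 fold changes within 0.01 of those above.

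Of the genes not called under the standard diet, Col4a3 had the most negative fold change. It ranged from 1.49 to 3.54 CPM (median 2.27) with Fc and from 0.745 to 2.16 CPM (median 1.64) with Fc(mML1)B3, where mice 1, 6 and 7 were at 0.745 to 0.85 CPM and the other 4 at 1.64 to 2.16 CPM. The log2 fold change was -0.68 (standard error 0.24, edgeR, adjusted p = 0.063), and it passed with DESeq2 (adjusted p = 0.032) and without Fc mouse 2 or Fc(mML1)B3 mouse 3 or 5 (edgeR, adjusted p of 0.036 to 0.048). Col18a1 had medians of 818 and 690 CPM, with all 7 Fc(mML1)B3 mice below the Fc median, and a log2 fold change of -0.18 (standard error 0.07, edgeR, adjusted p = 0.11). It passed with limma (adjusted p = 0.045) and without Fc mouse 6 (edgeR, adjusted p = 0.041). Col15a1 (-0.32, standard error 0.14), Col4a5 (-0.34, standard error 0.22), Col4a4 (-0.21, standard error 0.28) and Nid2 (-0.03, standard error 0.09) had edgeR adjusted p of 0.14 to 0.85. Col4a5 was at -0.17 without Fc mouse 6 and at -0.21 without Fc(mML1)B3 mouse 1, and was not called in either fit.

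Nid2 shares 386 exonic bases with 2700060E02Rik on the opposite strand, a gene with a median of 1801 reads per library. Strand was not used in counting, so the Nid2 values, with medians of 112.5 to 202 reads per group, are uncertain.

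Of the markers of other cells, edgeR called 7 between the groups under the standard diet. Of all genes it called 7.55% lower and 8.56% higher, so nothing is read about the lists from the number called. Activated stellate markers summed to 305 to 549 CPM (median 348) with Fc and 235 to 352 CPM (median 315) with Fc(mML1)B3. Of these 8 markers edgeR called 0, DESeq2 1 and limma 1. At an unadjusted p below 0.05, 4 were lower, a count without the share of all genes beside it. Macrophage markers summed to 329 to 538 CPM (median 504) and 313 to 436 CPM (median 384), with Gpnmb lower. Cholangiocyte markers summed to 227 to 496 CPM (median 321) and 178 to 408 CPM (median 347), with Sox9 lower. Quiescent stellate markers summed to 194 to 275 CPM (median 247) and 208 to 258 CPM (median 224), with Des lower. Sinusoidal endothelial markers summed to 265 to 308 CPM (median 273) and 262 to 315 CPM (median 277), with Fcgr2b higher. Vascular endothelial markers summed to 103 to 127 CPM (median 111) and 97.0 to 132.1 CPM (median 102), with none called. Of 6 hepatocyte markers Cps1 and Cyp2e1 were higher and Fgb lower. These 7 genes were named after their values were seen, and the part of these markers in the results was not tested.

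None of the 10 genes was shown to respond differently in the 2 experiments. The interaction test called 0 of 10 with edgeR, DESeq2 and limma alike, against 9.06% of the 14105 genes tested by edgeR, and 1 of 10 had an unadjusted p below 0.05. That gene was Col4a3, with a difference in log2 fold change of 0.78 (HFD minus standard diet, standard error 0.31, edgeR, adjusted p = 0.11). For Col15a1 the difference was -0.55 (standard error 0.27, edgeR, adjusted p = 0.24), and for Col4a1 it was -0.03 (standard error 0.18), with the 2 effects at -0.39 and -0.37.

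**Figure D3:**
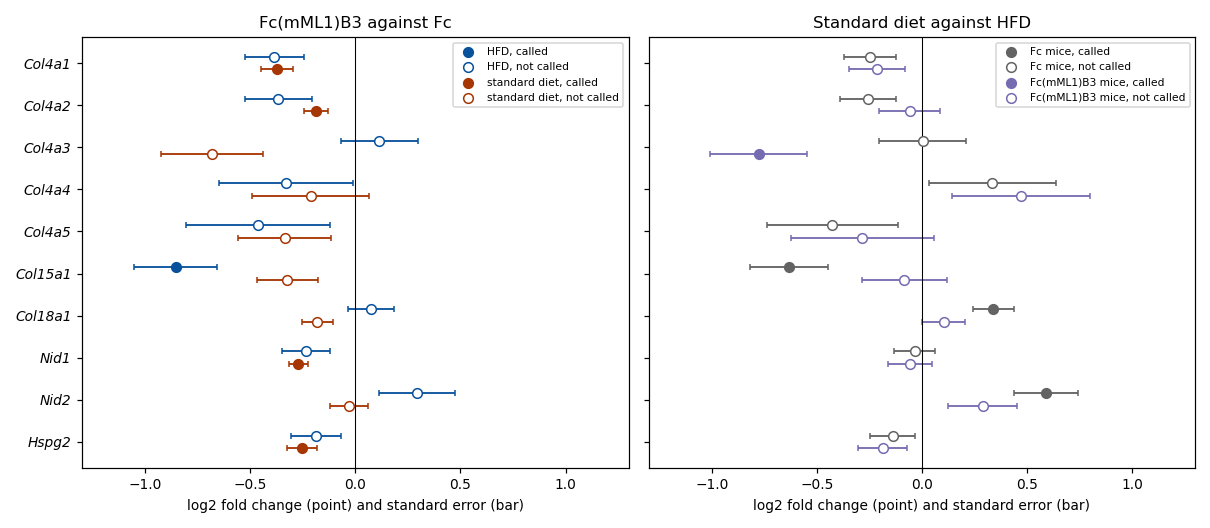
Log2 fold changes (points) with standard errors (bars) of the 10 genes for Fc(mML1)B3 against Fc under each diet (left) and for the standard diet against the HFD within each treatment (right), where filled points passed an adjusted p below 0.05. On the left Col15a1 is filled under the HFD and Col4a1, Col4a2, Nid1 and Hspg2 under the standard diet.

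The experiments also differed within a treatment, in comparisons that share their libraries with those above. In the Fc mice, the standard diet experiment had less Col15a1 and more Col18a1 and Nid2 than the HFD experiment. Thus 1 of 10 genes was called lower, against 24.6% of the 14105 genes tested, and 2 higher, against 23.3%. Neither share was above that of all genes. Col15a1 had a median of 13.1 CPM (9.76 to 18.0) on the standard diet and 19.0 CPM (10.1 to 30.2) on the HFD, and the log2 fold change was -0.63 (standard error 0.18, edgeR, adjusted p = 0.0049). Col18a1 ranged from 640 to 935 CPM under the standard diet and from 462 to 790 CPM under the HFD, and 6 of 9 standard diet mice were above the HFD range (log2 fold change 0.34, standard error 0.10, edgeR, adjusted p = 0.0041). Nid2 ranged from 6.37 to 9.79 CPM under the standard diet and from 2.35 to 8.41 CPM under the HFD, and 4 of 9 mice were above the HFD range (log2 fold change 0.59, standard error 0.15, edgeR, adjusted p = 0.0018). This Nid2 result is uncertain, because Nid2 shares exonic bases with a gene on the opposite strand and strand was not used in counting.

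Between the same Fc groups, 6 of 8 activated stellate markers and 3 of 6 macrophage markers were lower under the standard diet, with medians of the summed level at 348 against 620 CPM and 504 against 653 CPM. All 8 activated stellate log2 fold changes were below 0. Of the remaining lists, 2 of 5 cholangiocyte markers (medians of the sum 321 against 567 CPM), 3 of 6 quiescent stellate, 2 of 6 vascular and 1 of 7 sinusoidal endothelial markers were lower, and 3 of 6 hepatocyte markers were higher. In this comparison 24.6% of all genes were called lower and 23.3% higher, so nothing is read about the vascular and sinusoidal lists from their counts. The part of the markers in the results was not tested.

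In the Fc(mML1)B3 mice, the standard diet experiment had less Col4a3 than the HFD experiment, and no other gene was called. That is 1 of 10 called lower, against 17.9% of all genes, and 0 called higher, against 20.7%. Col4a3 ranged from 1.78 to 3.92 CPM (median 2.20) under the HFD, and 4 of the 7 standard diet mice were below this range (log2 fold change -0.78, standard error 0.23, edgeR, adjusted p = 0.0069). For Col15a1 the log2 fold change was -0.08 (standard error 0.20) in these mice. Of the markers, 5 of 8 activated stellate, 3 of 6 macrophage, 2 of 5 cholangiocyte and 2 of 6 quiescent stellate were called lower. So were 2 of 7 sinusoidal and 1 of 6 vascular endothelial markers, and 1 of 6 hepatocyte markers was called higher. Given the shares of all genes, nothing is read about the sinusoidal, vascular and hepatocyte lists from their counts. The part of the markers in the result for Col4a3 was not tested.

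Col4a1 and Col4a2 ran together from mouse to mouse in 3 of the 4 groups, while Col4a3 and Col4a4 were not shown to in any. Pearson's r of log2 CPM between Col4a1 and Col4a2 was 0.96 in HFD-fed Fc mice (permutation test, 2-sided, adjusted over 8 relations, p = 0.00032) and 0.96 in HFD-fed Fc(mML1)B3 mice (permutation test, p = 0.00016), with Spearman's rho of 0.95 and 0.98 (permutation tests, adjusted p = 0.00060 and 0.00024). In Fc mice on the standard diet r was 0.81 and rho 0.78 (exact permutation tests, adjusted p = 0.023 and 0.046). In their Fc(mML1)B3 counterparts r was 0.76 and rho 0.68 (exact permutation tests, adjusted p = 0.10 and 0.15). Without the 2 mice farthest from the median of Col4a1, r was 0.99, 0.96, 0.77 and 0.41 in this order. In the last group the relation was not called, and the drop to 0.41 depends on the scaling, since with library totals that were not TMM-scaled r was 0.65 with all 7 mice and 0.67 without the 2 farthest. Libraries share depth and scaling, which enters both genes. Close values were not particular to this neighbouring pair. Over all 36 livers, after the group means were removed, Pearson's r was 0.93 for Col4a1 and Col4a2. For Nid1, on chromosome 13, it was 0.86 with each of them, and for Hspg2 0.71 with Col4a1 and 0.78 with Col4a2. For Col18a1 it was -0.07 and 0.01.

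For Col4a3 and Col4a4, r was 0.47, 0.55, -0.23 and 0.77 in the same order of groups, and none of the 4 passed (permutation tests, exact under the standard diet, adjusted p = 0.20, 0.13, 0.56 and 0.10). Without the 2 farthest mice r was 0.05, 0.41, -0.17 and 0.92. Spearman's rho was 0.25, 0.55, -0.40 and 0.79, also without a call (permutation tests, adjusted p = 0.49, 0.15, 0.33 and 0.096). Over all 36 livers, with the group means removed, r was 0.33 for Col4a3 and Col4a4. For Col4a4 and Col4a5, on another chromosome, it was 0.76, and for Col4a3 and Col4a5 0.39. The medians of these 2 genes were 17.5 to 51 reads per group, and how strong a relation could be seen at this depth in 7 to 10 mice was not tested.

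The ratio of Col4a1 to Col4a2 per length, a description without a test, was 1.60 ± 0.146 (SD, n = 10) and 1.58 ± 0.127 (n = 10) with Fc and Fc(mML1)B3 in HFD-fed mice and 1.59 ± 0.0940 (n = 9) and 1.40 ± 0.138 (n = 7) in mice on the standard diet. The ratio of Col4a3 to Col4a4 varied more, from 0.550 to 4.38 over all mice.

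**Figure D4:**
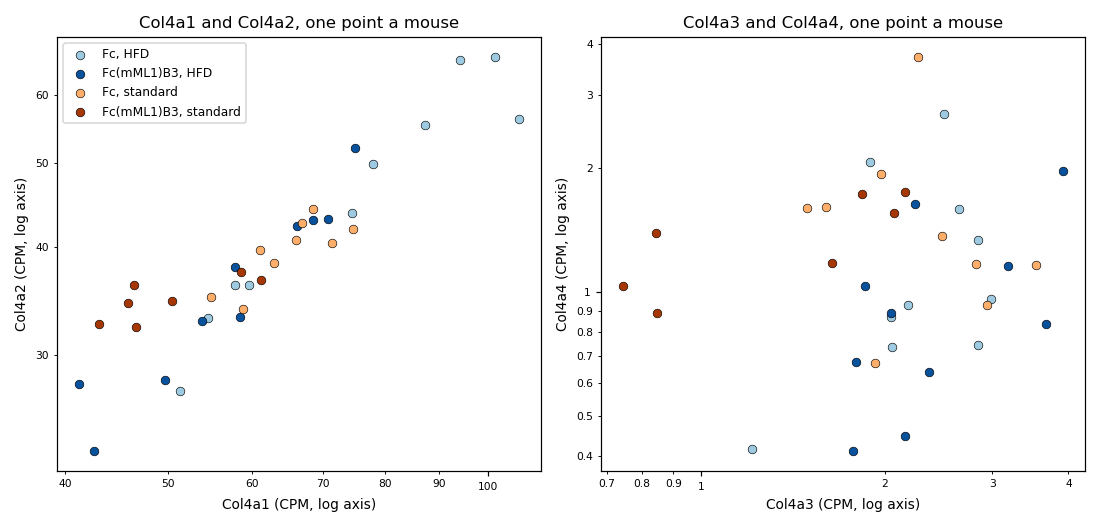
Level in each mouse (CPM, log axes) of Col4a2 against Col4a1 (left) and of Col4a4 against Col4a3 (right), coloured by group. The points of Col4a1 and Col4a2 lie along a line, with r of 0.76 to 0.96 within groups, and those of Col4a3 and Col4a4 scatter more widely, with r of -0.23 to 0.77.

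The genes whose levels ran most closely with a member over the 36 livers, after the group means were removed, differed between Col4a1 and Col18a1. This likeness is Pearson's r of log2 CPM over 14105 genes and is a description. For Col4a1 the nearest genes outside the 10 were Myadm (0.87), Sparc (0.82), which encodes a matrix protein that binds collagen IV, Vash1 (0.80), Col3a1 (0.78), a fibrillar collagen, and Loxl2 (0.77), a lysyl oxidase that crosslinks collagen. For Col18a1 they included Scap (0.87), the escort protein of the SREBP lipid regulators, Sema4g (0.87), Cluh (0.86) and Proz (0.86), which encodes plasma protein Z. For the low Col4a3 no gene exceeded 0.59, the value of Gpx8.

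Among 30 other basement membrane components, 27 passed the filter for low counts with HFD and 28 with standard diet libraries. Under the HFD 1 of 27 was called lower, against 6.68% of all genes, and 0 higher, against 8.14%. It was Fras1, a protein of the epithelial basement membrane (lower, log2 fold change -0.41, standard error 0.14, edgeR, adjusted p = 0.049). In the standard diet experiment 2 of 28 were called lower and 1 higher, against 7.55% and 8.56% of all genes, so the shares of the list were not above those of all genes in either experiment. Of these, Pxdn, whose product peroxidasin crosslinks collagen IV, fell by 0.61 on the log2 scale, with 16.3 ± 1.99 CPM (SD) over 9 Fc mice and 10.7 ± 1.73 CPM over 7 Fc(mML1)B3 mice (standard error of the fold change 0.10, edgeR, adjusted p = 0.00018). Lamb1, a laminin chain, was also lower (-0.31, standard error 0.07, edgeR, adjusted p = 0.0042), and Fras1 was higher (0.51, standard error 0.10, edgeR, adjusted p = 0.0012). The median log2 fold change of the list was -0.18 in the HFD and -0.13 in the standard diet experiment, beside -0.01 over all genes under each.

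Of the genes for folding, modifying and exporting collagen, 3 prolyl hydroxylase genes and 1 lysyl hydroxylase gene were higher with Fc(mML1)B3 under the HFD. Of 15 tested, these 4 were higher, against 8.14% of all genes, and 0 were lower, against 6.68%, where 0 were lower at an unadjusted p below 0.05 as well, and 4 in all were called with DESeq2 and 4 with limma. They were P4ha1 (0.63, standard error 0.14, edgeR, adjusted p = 0.0040) and P4ha2 (0.49), catalytic chains of prolyl 4-hydroxylase, P3h1 (0.45), a prolyl 3-hydroxylase, and Plod1 (0.22), a lysyl hydroxylase. The hydroxylase genes Plod3 (log2 fold change 0.10), Plod2 (-0.11), P3h2 (-0.14) and P3h3 (-0.15) were not called, with edgeR adjusted p of 0.37 to 0.76, and are named after their values were seen. On the standard diet 1 of 15 was called lower, against 7.55% of all genes, and 0 higher, against 8.56%. It was Serpinh1, the collagen chaperone HSP47, which fell by 0.47 on the log2 scale, with 40.2 ± 6.76 CPM (SD) over 9 Fc mice and 29.003 ± 3.53 CPM over 7 Fc(mML1)B3 mice (standard error of the fold change 0.10, edgeR, adjusted p = 0.0019).

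Of 15 tested cell-surface receptors of basement membranes, 0 were called under the HFD with edgeR, against 6.68% of all genes lower and 8.14% higher. At an unadjusted p below 0.05, 3 were higher and 0 lower, and DESeq2 called 1 and limma 2. These further counts have no share of all genes beside them, so nothing is read from them. On the standard diet 2 of 15 were lower with Fc(mML1)B3, against 7.55% of all genes. These were Itga3, an integrin chain that binds laminin (-0.29, standard error 0.08, edgeR, adjusted p = 0.019), and Itga1, an integrin chain that binds collagen IV (-0.17, standard error 0.05, edgeR, adjusted p = 0.029), which was named after its value was seen.

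Between the experiments, 24.6% of all genes were called lower under the standard diet in the Fc mice and 23.3% higher, and with Fc(mML1)B3 these shares were 17.9% and 20.7%. The Fc mice had 7 of 16 folding and export genes lower under the standard diet, among them Crtap (-0.77), a partner of P3h1, and 1 higher, Mia3 (0.83), which exports procollagen from the endoplasmic reticulum. In the Fc(mML1)B3 mice 10 of 16 were lower, led by Serpinh1 (-1.05), and Mia3 was again higher (0.91). Of 28 other basement membrane components, 7 were lower and 4 higher in the Fc mice, with Tinagl1 (-0.76), Smoc2 (-1.06) and Sparc (-0.59) lower and Ntn4 (0.57) higher, and with Fc(mML1)B3 5 were lower and 2 higher, shares near or below those of all genes. Of 15 receptors, 3 were lower and 7 higher in the Fc mice, with Itga1 (0.47) and Itga7 (0.45) higher, and with Fc(mML1)B3 1 was lower and 2 were higher. All of these are log2 fold changes that edgeR called at an adjusted p below 0.05.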

How the data were processed

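Liver RNA of 36 mice was sequenced as paired reads with a kit that keeps the strand. The authors trimmed reads with fastp, removed ribosomal RNA with Bowtie2 2.4.5, aligned to mm10 with STAR 2.7.10a and counted reads per gene with featureCounts of Subread 2.0.3, and the deposited values are these raw counts. Per the file headers, both ends had to align, each end counted as a read, strand was not used and reads with several alignments were left out, so 65.9% to 73.1% of the counts from 1 to 40 in a library were even. No 2 libraries of a group were duplicates (chi-square per degree of freedom of at least 6.06 over 147 pairs).

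Groups and mouse numbers came from the sample titles. From the counts, each diet was fitted in edgeR 4.0.16 (R 4.3.3, quasi-likelihood test) after TMM scaling and its filterByExpr filter, p-values were adjusted over all genes tested by Benjamini-Hochberg, and a gene was called at an adjusted p below 0.05 without a fold limit. The interaction and the comparisons between diets used all 36 libraries. CPM are TMM-scaled and were computed here, per kilobase with the exonic length of the files. The fits were run on simulated counts only to check the code, which does not show how well small fold changes are found. Correlations of log2 CPM used 100000 resamples or all pairings (scipy 1.17.1), and likeness used log2(CPM + 0.1).

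All 10 genes are named. Of 3 lists of related genes, up to 4 called genes with the smallest p per comparison and direction are named, and genes outside this rule are marked. The members and lists were chosen with earlier results of these data known. Alternatives were DESeq2 1.42.0, limma 3.58.1 (voom with quality weights), other scaling, a filter of at least 1 read, all 36 libraries, series of sample numbers, the thresholds of the study (adjusted p below 0.1 and 2-fold under the HFD, below 0.05 and 1.5-fold, 1 of 2 pairs stated, under the standard diet), leaving out each library, and the mouse number as a replicate block. Depth limits precision for Col4a3 and Col4a4. Promoter windows were read from a RefSeq table on GRCm38.p6, not from a genome file.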

Additional observations from a re-analysis of the deposited data

Results flagged for a closer look

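In 40 sets of values (10 genes in 4 groups), 2 held a mouse far from the others of its group by Dixon's criterion, which chance alone meets in about 1 of 20 groups. Both were Fc mouse 6 under the standard diet. It had 3.71 CPM of Col4a4, where the other 8 mice had 0.670 to 1.93 CPM, and 11.3 CPM of Col4a5, where the others had 3.09 to 6.79 CPM. Neither gene was called under the standard diet with or without it, and without it the log2 fold change of Col4a5 went from -0.34 to -0.17 and that of Col4a4 from -0.21 to 0.06.

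For 4 genes of the related lists Fc(mML1)B3 had unequal effects in the 2 experiments by the interaction test (edgeR over 36 libraries, HFD minus standard diet on the log2 scale). They were 1 of 28 other basement membrane components, 2 of 16 folding and export genes and 1 of 15 receptors, against 9.06% of all genes, so nothing is read about the lists from their number. Fras1 had a difference of -0.93 (adjusted p = 0.00026), with effects of -0.41 (HFD) and 0.51 (standard diet). Sdc4, a syndecan, had one of 0.49 (adjusted p = 0.020), with effects of 0.25 and -0.26, neither of which was called by itself. P4ha1 had one of 0.67 (adjusted p = 0.040) and P3h1 one of 0.38 (adjusted p = 0.021), with HFD effects of 0.63 and 0.45 and standard diet effects of -0.07 and 0.05. Diet, duration and injection schedule cannot be told apart in these differences.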

How the results depend on the processing

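Over settings other than leaving out a mouse, 305 of 340 values of single genes kept their direction and their side of the threshold. Under the HFD, where Col15a1 alone was called, DESeq2 called 2 of the 10 genes (with Col4a1), limma and the fit of all 36 libraries 3 each (with Col4a1 and Col4a2), and Fc(mML1)B3 mice 1 to 4 alone and the thresholds of the study, with edgeR or DESeq2, 0 each. With each mouse left out in turn, 1 to 2 genes were called. Under the standard diet, where 4 were called, DESeq2 (with Col4a3) and limma (with Col18a1) called 5 each. The calls of these 2 tools over all genes under this diet are not given, so nothing is read from the counts of 5. All 36 libraries called 0 and the series of the highest sample numbers 1 (Nid1). The thresholds of the study gave 0 with edgeR and 1 (Col4a3) with DESeq2. DESeq2 is the package that the study used, and this count was added here after the data were seen. Leaving out a mouse gave 3 to 5. The cause was not tested, except that smaller subsets hold fewer mice and the thresholds of the study add a fold limit. Over all genes, the 1972 calls under the HFD became 3039 with limma, 3133 with all 36 libraries, 705 with mice 1 to 4 and 178 at the thresholds of the study (237 with DESeq2). The 2186 under the standard diet became 785 with all 36 libraries, 942 with the highest sample numbers and 320 at the thresholds of the study (330 with DESeq2), and the 1278 of the interaction became 2026 with limma.

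The direction turned for genes that were not called. Nid2 under the standard diet was 0.047 with the highest sample numbers and ranged from -0.076 to 0.00060 with a mouse left out, and Col4a4 from -0.32 to 0.063. With limma, Nid1 between the Fc groups was 0.033, and between the Fc(mML1)B3 groups Col4a2 was 0.055, Col4a5 0.11 and Col15a1 0.012.

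The mouse numbers did not pair the samples, since the correlations of same-numbered mice ran from -0.67 to 0.31 under the HFD and from -0.18 to -0.02 under the standard diet, and 1 of 10 and 0 of 7 correlated best with their own number. With the number as a replicate block, Col15a1 was still 1 call under the HFD, Col4a2 was not called under the standard diet (adjusted p = 0.084), which left 3, and Nid2 joined Col4a3 between the Fc(mML1)B3 groups (2 calls). The interaction of Nid1 became -0.0043, Col4a3 between the Fc groups -0.045, and the calls over all genes 1294 and 1296 under the 2 diets.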
